A study of Ursus arctos with 12 samples.

Results

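The nuclear receptors and coactivators that set how much fat and oxygen a muscle fibre uses were examined here in thigh muscle of brown bears, in 10 genes taken by symbol from a table of 30249 genes. They are the peroxisome proliferator-activated receptors PPARA, PPARD and PPARG, their partners RXRA and RXRG, the coactivators PPARGC1A and PPARGC1B (PGC-1α and PGC-1β), the estrogen-related receptors ESRRA and ESRRG, and the nuclear respiratory factor NRF1. All 10 passed the filter of 30 reads summed over the libraries, as did 17290 genes in all. The libraries came from the vastus lateralis of 6 free-ranging Ursus arctos, 2 to 3 years old, each biopsied once in hibernation (winter) and once in its active period (summer), so that 12 libraries formed 6 pairs. No agent, transgene or altered genotype distinguished the groups, and the season of a library also carries the feeding state, body temperature and inactivity of the animal, which cannot be told apart here. The question asked was how the mRNA of each regulator differed between hibernation and activity.

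The PPARs are receptors for fatty acids and their derivatives that bind DNA as pairs with an RXR. PPARA and PPARD switch on genes of fatty acid uptake and oxidation in muscle, and PPARG is best known as the master regulator of the fat cell. The estrogen-related receptors have no known natural hormone and bind genes of the citric acid cycle and oxidative phosphorylation. The PGC-1 proteins do not bind DNA themselves but dock on these receptors and on NRF1, a factor unrelated to the receptors that turns on nuclear genes for respiration and for mitochondrial DNA expression.

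Levels are given as log2 CPM, the log2 of read counts relative to library size after edgeR's TMM scaling, with a prior count of 2. Each library held 16742406 to 32140160 counted reads. Adjusted p values are Benjamini-Hochberg values over all 17290 genes from the quasi-likelihood test of edgeR, winter against summer, and a gene was called at an adjusted p below 0.05. At these settings 39.5% of all genes tested were called, 19.6% higher and 19.9% lower in winter. Gene lengths were not used here, so levels are compared between seasons and not between genes. Myofibre genes were abundant in each library, with 12 of 12 markers tested and a summed level of 118456 to 195701 CPM in summer and 119914 to 161779 CPM in winter. The winter library of bear 1509 stood apart, at 98.6 on a second principal component where the other 11 libraries lay between −29.4 and 8.16, and results that rest on it or on the summer library of bear 1316 are given with and without them.

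PPARA, PPARD and ESRRA fell in winter and NRF1 rose, while the other 6 regulators, among them PPARGC1A, were not called. Thus 3 of the 10 regulators were lower and 1 was higher, 4 in all, against the 39.5% of all genes. These counts were also 3 and 1 without the summer library of bear 1316 or the winter library of bear 1509. Without that summer library, however, ESRRG (adjusted p = 0.0171, edgeR) took the place of ESRRA (0.0535) among the 3. The count lower was 2 without bear 1305, 1317 or 1509. With a fold change outside 0.77 to 1.3 and an adjusted p under 0.01, 3 of the 10 (PPARA, PPARD and NRF1) remained, where 24.0% of all genes did. In 4 of the 10 the 6 bears moved in the same direction, against 37.3% of all genes. As a group, therefore, the regulators were called about as often as other genes, and the results lie in which of them moved. In whole muscle, fewer cells of a type and less RNA per cell cannot be told apart.

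**Figure D1:**
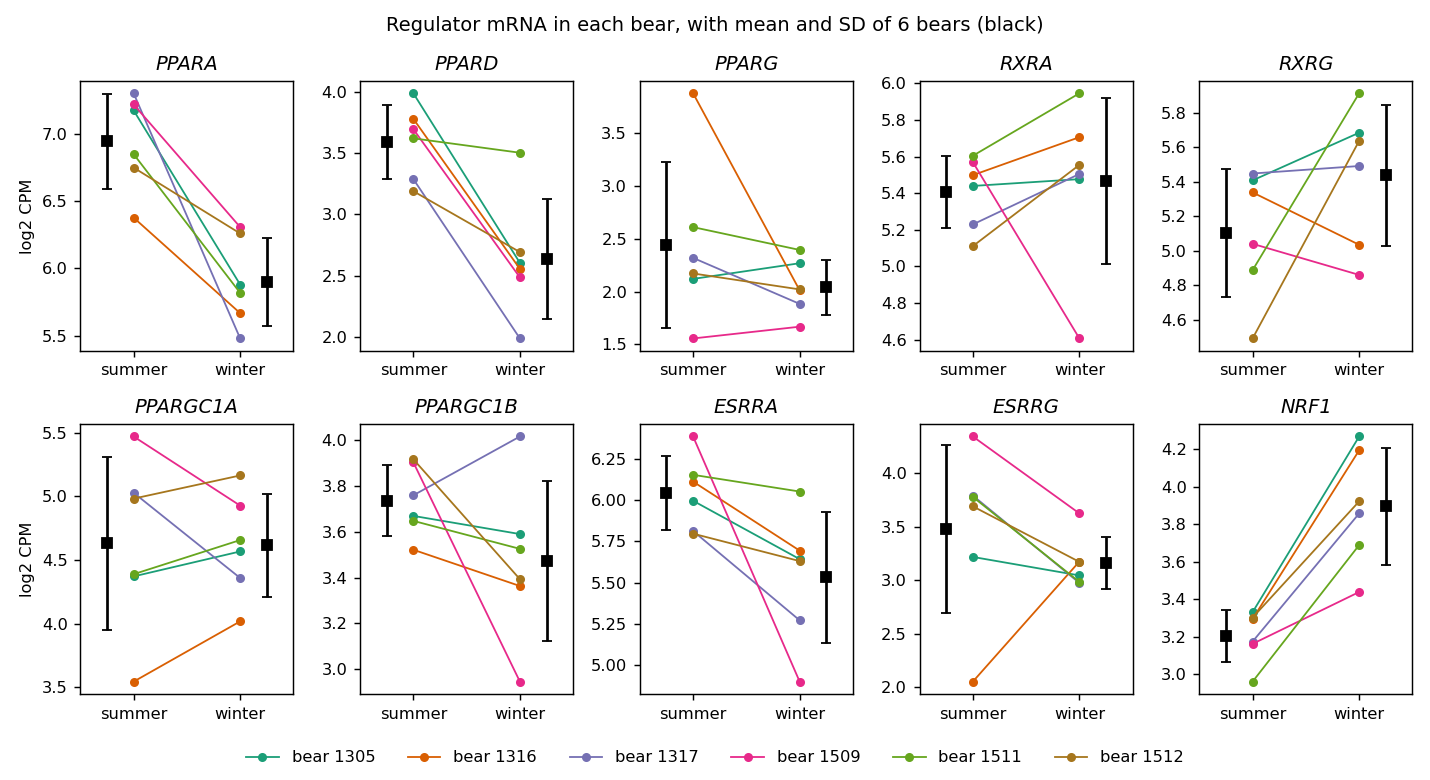
Level of each of the 10 regulators in log2 CPM (y axis, its own scale in each panel) in summer and winter, with 1 line per bear and black squares for the mean and SD of 6 bears. PPARA fell and NRF1 rose without overlap between seasons, and PPARGC1A lines cross.

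PPARA, the receptor best known for driving fatty acid oxidation in fasting, showed the largest change among the 10 regulators. In summer it lay at 6.38 log2 CPM in the lowest library, 7.01 at the median and 7.30 in the highest, and in winter at 5.48, 5.85 and 6.31. The highest winter library (bear 1509) lay below the lowest summer library (bear 1316), so the seasons did not overlap, which held for 8.21% of all genes in this direction. The mean was 6.94 ± 0.35 log2 CPM in the active bears and 5.90 ± 0.33 in hibernation (SD, n = 6). The log2 fold change was −1.05 (standard error, SE, 0.18, adjusted p = 0.000482, edgeR), a winter level 0.484 times that of summer. All 6 bears fell (6 of 6), by as little as 0.49 on the log2 scale in bear 1512 and by as much as 1.82 in bear 1317. The call held in 16 of 16 alternative fits, with adjusted p up to 0.00413.

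PPARD, usually described as the most abundant PPAR of skeletal muscle and linked to endurance fibres, fell by a similar amount. Beside the 791 to 3957 reads per library of PPARA, it had far fewer here, 69 to 433. Its lowest, median and highest levels were 3.19, 3.66 and 3.99 log2 CPM in summer and 1.99, 2.58 and 3.50 in winter. The seasons overlapped because of bear 1511, whose winter library held 3.50 log2 CPM and whose change was −0.12. In bear 1512 the change was −0.50, and in the other 4 bears it lay between −1.38 and −1.21. Its log2 difference was −0.92 (SE 0.22, adjusted p = 0.00508, edgeR), lower in 6 of 6 bears. The call held in 16 of 16 alternatives, with adjusted p up to 0.0286.

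PPARG had few reads (56 to 307 per library) and was not called. Its lowest, median and highest levels were 1.56, 2.25 and 3.88 log2 CPM in summer and 1.67, 2.02 and 2.40 in winter. The summer maximum belonged to bear 1316, and the next summer library was at 2.61. The fitted log2 change was −0.59 (SE 0.33, adjusted p = 0.163, edgeR), lower in 4 of 6 bears. Without the summer library of bear 1316 it was −0.14 (adjusted p = 0.614), and without both libraries of that bear −0.12 (adjusted p = 0.693).

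Adipocyte genes were also high in that library. ADIPOQ, which encodes the fat cell hormone adiponectin, was at 348 CPM in the summer library of bear 1316 and at 13.1 to 40.1 CPM in the other summer libraries. PLIN1, a coat protein of the fat cell's lipid droplet, was at 74.4 CPM there and at 1.62 to 6.34 CPM in the others. The summed level of the 12 adipocyte markers was 1545 to 2536 CPM in summer, highest in that library, and 579 to 1364 CPM in winter. LEP was called higher, with at most 19 reads per library, in this fit and in 10 of 15 alternatives, and not without bear 1317, 1511 or 1512. Its estimate of 2.79 was 3.72 without bear 1305 and 2.04 without bear 1511. In all, 1 of these 12 was called higher and 4 were called lower, beside 19.6% and 19.9% of all genes. One of the 4 was FABP4, a fatty acid carrier of fat and endothelial cells and a PPARG target, at −0.95 (SE 0.24, adjusted p = 0.0073, edgeR, lower in 6 of 6 bears). ADIPOQ (−0.86, adjusted p = 0.447) and PLIN1 (−0.93, adjusted p = 0.428) were not called, and their log2 fold changes were 0.73 and 0.99 without the summer library of bear 1316. ADIPOQ was higher in winter in bears 1509, 1511 and 1512 and lower in the others. PLIN1 was higher in bears 1317, 1509, 1511 and 1512 and lower in the others. The summed level of the 12 markers was nonetheless lower in winter in each bear. In the summer library of bear 1509, FABP4 held 311, ADIPOQ 13.1 and PLIN1 1.62 of the summed 1669 CPM. Most of that sum thus came from other markers of the list. In bear 1511 ADIPOQ rose from 39.1 to 148 CPM in winter while the sum fell from 1545 to 1364 CPM. The sum therefore does not follow ADIPOQ or PLIN1 in each bear. The part of fat cells in the PPARG values was not tested.

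**Figure D2:**
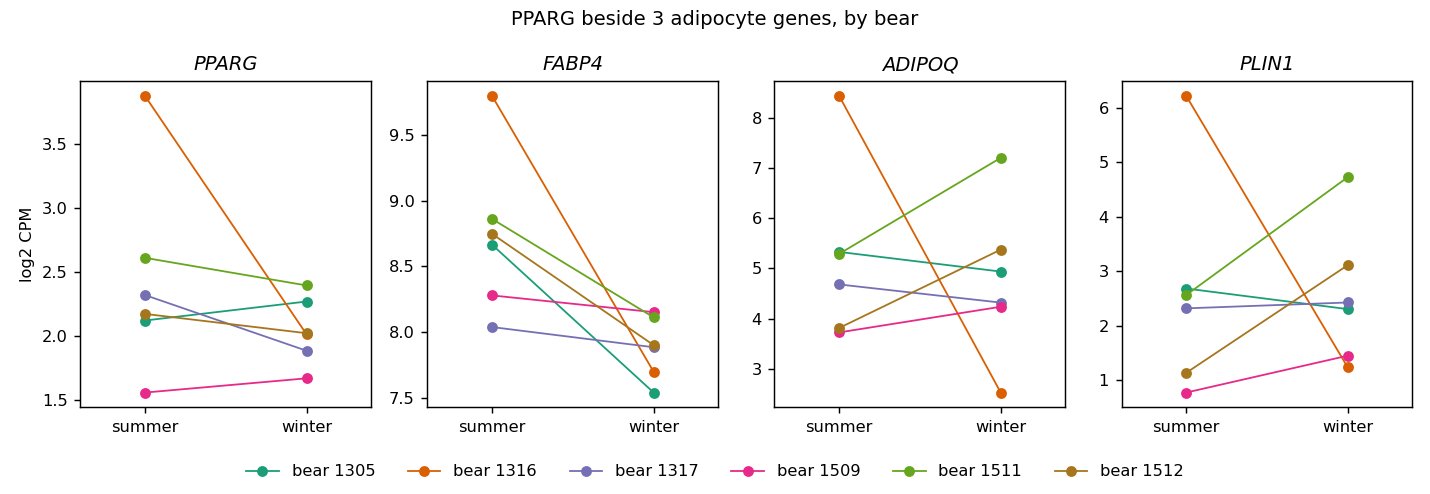
PPARG and the adipocyte genes FABP4, ADIPOQ and PLIN1 in log2 CPM (y axis, its own scale in each panel) in summer and winter, with 1 line per bear. The summer library of bear 1316 is the highest of its season in all 4 panels, at 3.88 log2 CPM for PPARG and 8.44 for ADIPOQ.

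RXRA and RXRG, the obligate partners of the PPARs, were not called. RXRA lay at 5.11, 5.47 and 5.60 log2 CPM in summer (lowest, median, highest) and at 4.61, 5.53 and 5.95 in winter. It was higher in winter in 5 of 6 bears by 0.04 to 0.44, and lower by 0.96 in bear 1509, whose winter library was the lowest of all 12. The log2 fold change was 0.10 (SE 0.17, adjusted p = 0.676, edgeR), and 0.23 (adjusted p = 0.141) without that library. RXRG, the RXR most restricted to muscle, lay at 4.49, 5.19 and 5.45 log2 CPM in summer and at 4.86, 5.57 and 5.91 in winter. Its log2 fold change was 0.34 (SE 0.20, adjusted p = 0.179, edgeR), with differences of 1.03 in bear 1511 and 1.15 in bear 1512 and between −0.30 and 0.28 in the other 4. RXRB, which is not one of the 10 genes, rose by 0.28 (SE 0.09, adjusted p = 0.0178, edgeR, 6 of 6 bears) and was no longer called without bear 1305 (adjusted p = 0.086), without bear 1511 (0.0632) or with library totals (0.108).

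PPARGC1A, the coactivator that rises with exercise and cold, was spread widely between bears in both seasons and was not called. Its lowest, median and highest levels were 3.55, 4.69 and 5.47 log2 CPM in summer and 4.02, 4.61 and 5.16 in winter. It was higher in winter in 4 of 6 bears, by 0.18 to 0.47, and lower in bears 1317 (−0.67) and 1509 (−0.54). Its estimated change was −0.09 (SE 0.27, adjusted p = 0.814, edgeR), and its sign turned when bear 1317 (0.03) or bear 1509 (0.06) was left out. Counts per gene do not separate the isoforms of PPARGC1A, so a shift between them would not be seen. PPARGC1B, its relative, lay at 3.52, 3.72 and 3.92 log2 CPM in summer and at 2.95, 3.46 and 4.02 in winter. It was lower in 5 of 6 bears, with an estimate of −0.24 (SE 0.15, adjusted p = 0.237, edgeR). In bear 1509 it was lower by 0.96, and the estimate was −0.15 (adjusted p = 0.41) without the winter library of that bear and −0.10 (0.612) without both of its libraries.

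ESRRA, the estrogen-related receptor that carries out much of the PGC-1α programme for mitochondria, fell in winter. It lay at 5.80, 6.05 and 6.39 log2 CPM in summer and at 4.90, 5.64 and 6.05 in winter, lower in 6 of 6 bears, with overlap between seasons. Bear 1509 had both the highest summer library and the lowest winter library, a change of −1.49, while the other bears lay between −0.54 and −0.10. Its log2 difference was −0.48 (SE 0.17, adjusted p = 0.0338, edgeR). This call was close to the threshold and held in 11 of 16 alternative fits. Leaving out bear 1305 gave an adjusted p of 0.0648, leaving out bear 1316 gave 0.0696, bear 1317 gave 0.0657, bear 1509 gave 0.117 with an estimate of −0.29, and the summer library of bear 1316 gave 0.0535. Without the winter library of bear 1509 alone the estimate was −0.38 and the adjusted p 0.0469.

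ESRRG, the estrogen-related receptor of oxidative fibres, lay at 2.05, 3.74 and 4.35 log2 CPM in summer and at 2.97, 3.11 and 3.63 in winter. It was lower in 5 of 6 bears, by 0.17 to 0.82, and higher by 1.12 in bear 1316, whose summer library held 85 reads and was the lowest of the 12. The fitted log2 change was −0.45 (SE 0.28, adjusted p = 0.208, edgeR) and was not called. Without the summer library of bear 1316 it was −0.63 and was called (adjusted p = 0.0171), as it was without both libraries of bear 1316 (−0.63, adjusted p = 0.0324). That summer library also held the lowest PPARA, PPARGC1A and PPARGC1B levels of its season. It had the lowest summed level of slow fibre genes in summer, 15748 CPM against 18097 to 32117 CPM in the other summer libraries, and the highest summed level of fast fibre genes, 79065 CPM against 48722 to 67162 CPM. Some fast myosin heavy chains matched no symbol and are not in the fast fibre sum. The part of fibre composition in these values was not tested.

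Among the estrogen-related receptors the largest change was that of ESRRB, which is not among the 10 genes. Its mean dropped from 3.47 ± 0.48 log2 CPM in the active bears to 1.79 ± 0.33 in hibernation (SD, n = 6 bears), an estimated change of −1.75 (SE 0.24, adjusted p = 9.73e-05, edgeR), with no overlap between seasons, and it was called in 16 of 16 alternatives. Of the estrogen-related receptors, ESRRB and ESRRA were thus called lower, and ESRRG was called lower only without bear 1316 or its summer library among the fits run.

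NRF1 was the only one of the 10 regulators called higher in winter. It lay at 2.96, 3.24 and 3.33 log2 CPM in summer and at 3.44, 3.89 and 4.27 in winter, and the lowest winter library (bear 1509) lay above the highest summer library (bear 1305). Such a lack of overlap, with winter higher, was seen in 9.12% of all genes. The log2 fold change was 0.72 (SE 0.14, adjusted p = 0.00145, edgeR), which is 1.65 times the summer level. It rose in 6 of 6 bears, by 0.28 in bear 1509 and by 0.62 to 0.94 in the others. The spread between bears was narrow in summer, with a coefficient of variation of 9.31%, and wider in winter at 21.2%. The call held in 16 of 16 alternatives, with adjusted p up to 0.00718.

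**Figure D3:**
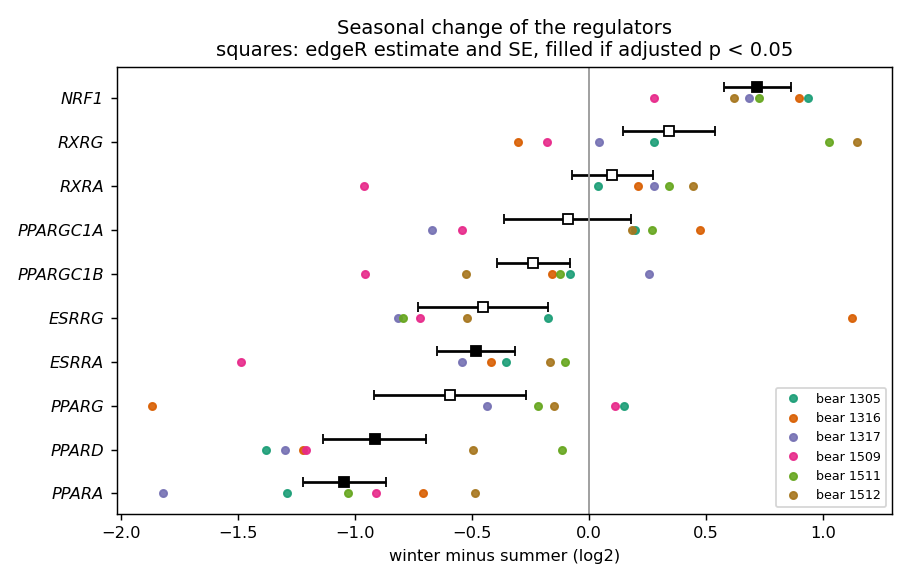
Winter minus summer difference of each regulator on the log2 scale (x axis), with 1 coloured point per bear and a square with its standard error for the edgeR estimate, filled where the adjusted p was below 0.05. The filled squares are PPARA, PPARD and ESRRA below 0 and NRF1 above 0.

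Whether relatives differed in their change was tested with the log2 ratio of a pair of genes within each library, which library scaling does not alter. For 6 pairs, the winter minus summer change of the ratio was compared with 0 by a two-sided exact permutation test over the signs of the 6 bears, whose smallest possible p is 0.0312. None of the 6 pairs passed, with unadjusted p from 0.188 to 0.719. After adjustment over the 6 pairs, no pair alone could have passed even at the smallest possible p. The adjusted test could therefore not single out a pair. The ratio of PPARA to PPARD differed by −0.09 ± 0.53 (SD, n = 6 bears) and ranged from −0.91 to 0.51 over bears (exact p = 0.719, adjusted over the 6 pairs 0.719). That of PPARA to PPARG differed by −0.64 ± 0.97, lower in 5 of 6 bears, and that of PPARD to PPARG by −0.55 ± 0.84, lower in 4 of 6 bears (exact p = 0.188, adjusted 0.5 for both). That of PPARGC1A to PPARGC1B differed by 0.25 ± 0.60, higher in 5 of 6 bears (exact p = 0.344, adjusted 0.516). The ratios of ESRRA to ESRRG (−0.19 ± 0.83) and of RXRA to RXRG (−0.28 ± 0.54) gave exact p of 0.656 and 0.25 (adjusted 0.719 and 0.5). A p above the threshold does not show that relatives changed alike, since the SD over bears was 0.53 to 0.97.

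The 3 regulators with the largest changes were set beside all other genes at a mean of at least 1 log2 CPM, 11364 genes, by the root mean square difference over the 12 libraries after centring each gene on its own mean. Nearest to PPARA came LOC113265314 (0.17), IFFO2 (0.18) and PFKM, the muscle phosphofructokinase of glycolysis (0.19 on the log2 scale). Nearest to PPARD came GPX4, a peroxidase that protects membrane lipids (0.19), TEN1 (0.20) and RFXANK (0.22). Nearest to NRF1 came CALCOCO1 (0.12), AKAP8 (0.12) and PEX5, the import receptor of peroxisomes (0.12). For scale, PPARA, PPARD and NRF1 deviated from their own means by 0.61, 0.60 and 0.41. These regulators were chosen for their seasonal change, so nearness largely reflects a similar change between seasons. The genes nearest to PPARA, in the order given, had log2 fold changes of −0.99, −1.13 and −0.93. Shared regulation was not tested.

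Genes that act on PGC-1α in muscle were more often higher than lower in winter, though they were called about as often as all genes. Of all genes tested, 39.5% were called, 19.6% higher and 19.9% lower. Of 22 kinases, phosphatase subunits and transcription factors known to raise PPARGC1A expression or activity, 9 were called higher, 0 lower and 13 neither, with a median log2 fold change of 0.38 beside −0.0021 over all genes tested. Before adjustment, 11 were higher and 0 lower at p below 0.05, and DESeq2 called 11 and 0. In the fit with a replicate block for bear, 10 were higher and 1 lower, and 1 was also lower without bear 1509 or its winter library. MEF2C (1.15, adjusted p = 2.35e-05), MEF2A (0.92, adjusted p = 0.000176) and the calcineurin subunit PPP3R1 (0.78, adjusted p = 0.000272) rose most, each in 6 of 6 bears by edgeR.

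Among 13 coactivators, 6 were higher and 2 lower, beside 19.6% and 19.9% of all genes, with a median log2 fold change of 0.32. SIRT1, the deacetylase that activates PGC-1α, rose by 0.86 (adjusted p = 0.000234) on the log2 scale, CREBBP, a histone acetyltransferase, by 0.72 (adjusted p = 0.00517) and NCOA1, a steroid receptor coactivator, by 0.71 (adjusted p = 9.5e-05), each in 6 of 6 bears by edgeR. CARM1, an arginine methyltransferase that modifies PGC-1α, fell by 0.58 (adjusted p = 0.0033). PPRC1, the remaining relative of the PGC-1 proteins, rose by 0.44 (adjusted p = 0.0147, 6 of 6 bears), but not past the threshold without bear 1316 (0.0568), without bear 1512 (0.0591) or with library totals (0.0786). PERM1, a muscle protein induced by PGC-1 and the estrogen-related receptors, was at −0.08 (adjusted p = 0.665). The number lower was 1 in most alternatives, since NCOA6 (−0.32, adjusted p = 0.0482) passed in only 4 of 16.

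Of 9 corepressors tested, 3 were higher and 2 lower, beside 19.6% and 19.9% of all genes, with a median log2 fold change of −0.05. TBL1XR1 (0.52, adjusted p = 0.000854) and SIN3A (0.61, adjusted p = 0.00433) rose in 6 of 6 bears by edgeR. HDAC3 (0.22, adjusted p = 0.0446 by edgeR) was also called higher but passed in only 5 of 16 alternatives. The number higher was 2 with a replicate block. The number lower was 0 without bear 1317 by edgeR and 1 without bear 1305, 1316, 1509 or 1512 or without the winter library of bear 1509. NRIP1, known as RIP140 and a repressor of oxidative genes, was at 0.15 (adjusted p = 0.33). NCOR1 was at −0.27 (adjusted p = 0.0774) and was called lower without bear 1316 (−0.37, adjusted p = 0.0137) or its summer library (−0.34, adjusted p = 0.0162). Of 13 partner and related receptors, 3 were higher and 2 lower, near the 19.6% and 19.9% of all genes, with a median of 0.12. RORA (1.08, adjusted p = 0.00173) and the thyroid hormone receptor THRA (0.71, adjusted p = 0.000207) rose in 6 of 6 bears, and NR4A3, an exercise-responsive receptor, fell by 2.15 (adjusted p = 0.0162 by edgeR, 6 of 6 bears), though not past the threshold without bear 1317 (adjusted p = 0.0567).

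Genes that express and copy mitochondrial DNA, with ALAS1 and the nuclear factors GABP and YY1 listed beside NRF1, were tested as the NRF1 arm. Of 19 tested, 3 were higher, 6 lower and 10 neither, with a median log2 fold change of −0.21. The 3 called higher were the transcription factors GABPA, GABPB2 and YY1, and the 6 called lower were TFB1M, TFB2M, TEFM, MTERF4, SSBP1 and ALAS1. The number higher was 1 without bear 1305, 1316 or 1509, without the summer library of bear 1316 or the winter library of bear 1509, with library totals and with no filter, and the number lower was 3 without bear 1305. TFAM, the packaging and transcription factor of mitochondrial DNA and a classic NRF1 target, was at 0.15 (adjusted p = 0.476), higher in 3 and lower in 3 bears. TFB2M, which starts mitochondrial transcription, fell by 0.87 (adjusted p = 0.000207) and ALAS1, the first enzyme of haem synthesis, fell by 1.82 (adjusted p = 7.52e-06) on the log2 scale, each in 6 of 6 bears by edgeR. GABPA, the DNA-binding subunit of nuclear respiratory factor GABP, was called at 0.32 (adjusted p = 0.0421, 6 of 6 bears) in this fit and in 8 of 16 alternatives, with adjusted p of 0.127, 0.142, 0.0726 and 0.0607 without bear 1305, 1316, 1317 or 1509 and of 0.0822 and 0.0637 without the summer library of bear 1316 or the winter library of bear 1509.

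Textbook PPAR target genes moved both ways. Of 31 tested, 11 were higher, 8 lower and 12 neither, with a median log2 fold change of 0.07. ANGPTL4, a secreted inhibitor of lipoprotein lipase, rose by 3.17 (SE 0.53, adjusted p = 0.000466), from 0.08 ± 1.31 log2 CPM in summer to 3.57 ± 0.55 in winter (SD, n = 6 bears). The estimate was 3.88 without the summer library of bear 1316 and 4.01 without both libraries of that bear. PDK4, the kinase that shuts pyruvate out of the citric acid cycle, rose by 2.38 (SE 0.57, adjusted p = 0.00454), from 6.31 ± 1.68 to 9.37 ± 0.22 log2 CPM, with an estimate of 3.00 in the fit with a replicate block and 3.06 by limma voom. CPT1A (1.22, adjusted p = 0.000298) and CPT1B (0.64, adjusted p = 0.00306), which carry fatty acids to the mitochondrion, and the uncoupling protein UCP3 (0.92, adjusted p = 0.00587) rose in 6 of 6 bears by edgeR, as did ANGPTL4 and PDK4. All 5 of these genes rose while PPARA and PPARD fell in the same bears.

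On the other side, LPL, which releases fatty acids from lipoproteins, fell by 1.78 (adjusted p = 0.000113), HADHB, a subunit of the β-oxidation trifunctional protein, fell by 1.09 (adjusted p = 0.00114) and ACSL1, which activates fatty acids, fell by 0.91 (adjusted p = 0.0013) on the log2 scale, each in 6 of 6 bears by edgeR. ACADM (0.32, adjusted p = 0.157) and PLIN2 (0.17, adjusted p = 0.582) were not called. Left out one by one, bears 1305 and 1317 each lowered the number of PPAR targets called lower from 8 to 5, while 13 were higher and 8 lower without the summer library of bear 1316, and 11 and 9 without the winter library of bear 1509.

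Genes known as targets of the estrogen-related receptors and PGC-1, most of them of oxidative metabolism, were mostly lower in winter. Of 26 tested, 21 were lower, 0 higher and 5 neither, with a median log2 fold change of −0.77, and the median over these genes was below 0 in each bear, from −1.10 to −0.34. Before adjustment, 23 were lower and 0 higher at p below 0.05, and DESeq2 called 21 and 0. The count lower was 18 to 22 over the alternatives at this threshold, 19 without the summer library of bear 1316 and 21 without the winter library of bear 1509. MDH2, malate dehydrogenase of the citric acid cycle, fell by 1.27 (adjusted p = 9.21e-05), IDH3A, a subunit of isocitrate dehydrogenase, by 0.64 (adjusted p = 0.00104) and ATP5F1B, the catalytic subunit of ATP synthase, by 0.57 (adjusted p = 0.00619), each in 6 of 6 bears by edgeR. FNDC5, the precursor of irisin and induced by PGC-1α, fell by 2.73 (adjusted p = 0.00454) from only 0 to 27 reads per library, with an estimate of −4.09 without the winter library of bear 1509 and −3.97 without both libraries of that bear. MFN2, a mitochondrial fusion protein, was called at −0.36 (adjusted p = 0.0317) but not in the fit with a replicate block for bear (0.0643) or without bear 1317 (0.129), 1509 (0.0897) or 1512 (0.0773). The list names 36 genes, and 9 of them, with CYCS and the complex III and IV subunits, matched no symbol and were not analysed here. A further gene had no reads in any library and was not tested. The list also holds genes of other roles, among them FNDC5 and ESRRB, and ESRRB was counted among the partner receptors as well.

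**Figure D4:**
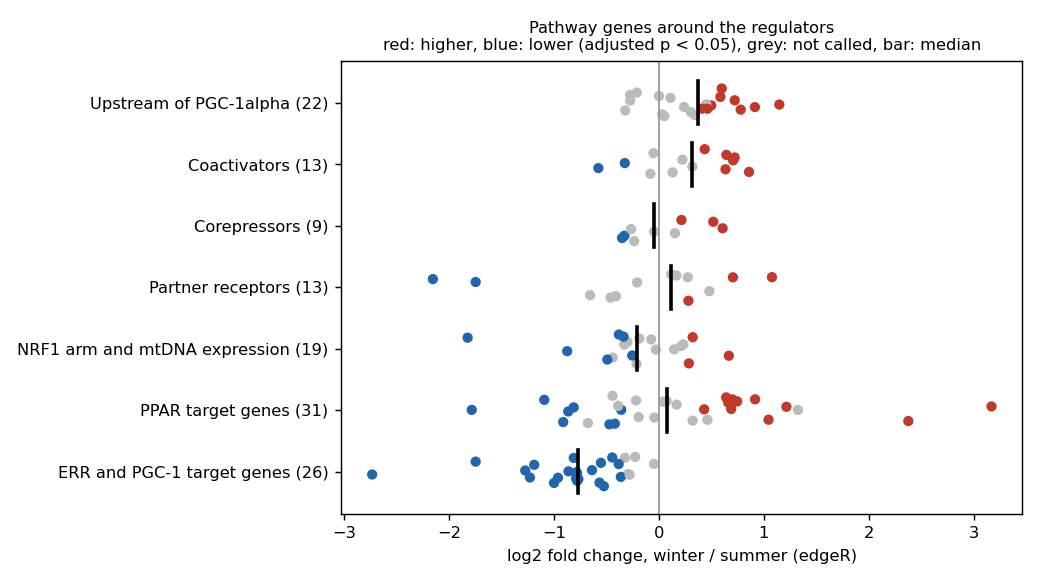
Winter/summer log2 fold change (x axis, edgeR) of each tested gene in 7 lists around the regulators, with the number of genes in brackets. Red points were called higher and blue points lower at an adjusted p below 0.05, grey points were not called, and bars mark list medians, −0.77 for targets of the estrogen-related receptors and PGC-1 and 0.07 for PPAR targets.

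Marker genes of other cells and of fibre type were counted beside all genes tested, of which 39.5% were called, 19.6% higher and 19.9% lower. Fibroblast markers were lower in 7 of 10 and higher in 0 (10 and 0 before adjustment, 7 and 0 by DESeq2), with a summed level of 4546 to 11895 CPM in summer and 340 to 2272 CPM in winter. Endothelial markers were lower in 5 of 9 and higher in 2, macrophage markers lower in 4 of 10, smooth muscle and pericyte markers lower in 3 of 8 and satellite cell markers lower in 3 of 5. In each of the last 3 lists 0 were higher, by edgeR, before adjustment and by DESeq2, except that 1 satellite cell marker was higher without the winter library of bear 1509. Several of these counts moved with the fit. The smooth muscle and pericyte count lower was 5 with a replicate block, 6 with library totals or without bear 1305, and 2 without bear 1509 or 1511. The macrophage count lower was 2 without bear 1305, 1316 or 1512 and 1 without bear 1317. The satellite cell count lower was 1 without bear 1305, 1509, 1511 or 1512, and 2 without bear 1316 or 1317, without the summer library of bear 1316 or without the winter library of bear 1509. Of the endothelial markers, 3 were lower without bear 1509, and 1 was higher without bear 1305, 1317, 1511 or 1512. Of the 12 myofibre markers, 2 were higher and 5 lower, or 3 lower without bear 1316. Of the 2 liver markers tested, both were lower, at a summed level of 51.0 to 85.2 CPM in summer and 12.4 to 30.1 CPM in winter. Of 11 slow fibre genes 1 was higher and 1 lower, a smaller share than the 39.5% of all genes. Of 10 fast fibre genes 0 were higher and 4 lower, in all near that 39.5%, with 0 higher before adjustment and by DESeq2. The slow fibre count lower was 2 with a replicate block, by DESeq2, and without bear 1316 or its summer library, and 0 without bear 1305 or 1317. The slow fibre count higher was 2 with a replicate block, and 1 fast fibre gene was higher without the summer library of bear 1316. Of the 12 fast fibre genes listed, some fast myosin heavy chains matched no symbol and were not tested. MYH7, the slow myosin heavy chain, was at −0.68 (adjusted p = 0.0511, lower in 6 of 6 bears), and was called in 8 of 16 alternatives, among them the fit with a replicate block for bear (0.0284). The part of tissue composition in the regulators' changes was not tested.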

How the data were processed

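Stranded mRNA libraries of 12 muscle biopsies were sequenced as single 50-base reads. The authors aligned them to ASM358476v1 with TopHat 2.1.1 and counted reads per gene with featureCounts 1.6.2 on the reverse strand, and the deposited values are raw counts without scaling or filtering. Each sequencing lane carried as many libraries as a season holds, but the lane of each library is not given in the sources used here. Lane could therefore coincide with season, and it was not tested. Genes under 30 reads in total were dropped, which removed 0.0190% of reads.

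Seasons were compared across all genes with edgeR 4.0.16 in R 4.3.3 (TMM, glmQLFit, glmQLFTest, season as the only term), and standard errors were taken from the F statistic. The source names the same animals in both seasons but states no formula. The p values and standard errors of this main fit do not use the pairing by bear. Alternatives were the bear as a replicate block, DESeq2 1.42.0 with and without it, limma 3.58.1 voom, RLE, library totals, no filter, filterByExpr, each bear left out and stricter limits. Leaving out the summer library of bear 1316 or the winter library of bear 1509 was added after the data were seen. The counts of 16 alternatives per gene cover all of these except the limits. Same-numbered libraries came from the same animal, and deviations from season means correlated at 0.0903 to 0.344 within bears and at a median of −0.0634 between bears. Samples within a season are separate animals.

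The regulators, gene lists and rule for named genes were chosen with earlier results of these data known. Named were all regulators, 24 genes fixed by name and at most 3 rises and 3 falls per list among called genes. TFB1M, MTERF4 and SSBP1 were named outside this rule, after their values were seen, to complete a count. One of the genes fixed by name is not reported here. Likeness of pattern followed the rule given with its result. Of 243 list genes, 225 matched by symbol, 4 by gene ID in the UrsArc2.0 annotation and 14 not at all. On data simulated for winter against summer with 17290 genes, 200 of them changed, edgeR recovered 74% of 2-fold and 97% of 4-fold changes and called 11 others. The simulation changed far fewer genes than were called in the data, took them only from genes with ample reads, and had no bear effect. Its recovery may therefore not hold for the real fit or for genes with few reads. Sequences of the regulators were not used here.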

Additional observations from a re-analysis of the deposited data

Results flagged for a closer look

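In 2 of 20 sets of 6 libraries (10 regulators, 2 seasons), 1 library lay far from the rest by Dixon's criterion, which chance alone meets in about 1 of 20. Both were the winter library of bear 1509. RXRA was at 4.61 log2 CPM there, while the other winter libraries lay between 5.48 and 5.95. ESRRG was at 3.63 log2 CPM there, while the others lay between 2.97 and 3.18. The same library held the lowest winter levels of ESRRA, PPARGC1B, RXRG, PPARG and NRF1 and the highest of PPARA.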

How the results depend on the processing

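Of 170 comparisons of the 10 regulators' log2 fold changes with the alternatives, 160 kept direction and side of the threshold, 6 lost a call (all ESRRA, 1 of them under the stricter limits), 2 gained one (ESRRG) and 2 turned sign (PPARGC1A). With bears left out in turn, PPARGC1A ranged from −0.17 to 0.058, PERM1 from −0.18 to 0.0078, ADIPOQ from −1.92 to 0.97 and PLIN1 from −1.90 to 1.19, the log2 ratio change of ESRRA to ESRRG from −0.37 to 0.076 and of PPARA to PPARD from −0.21 to 0.077, and the PPAR targets called lower from 5 to 9. The positive ends were reached without bear 1316 for ADIPOQ, PLIN1 and ESRRA to ESRRG, without bear 1509 for PPARGC1A and PERM1, and without bear 1511 for PPARA to PPARD. With the bear as a replicate block, ADIPOQ was at 0.0012 and PLIN1 at 0.22 (0.024 and 0.30 in DESeq2 with the block), and no regulator changed its call. Without the winter library of bear 1509 PERM1 was at 0.013, and without the summer library of bear 1316 ADIPOQ was at 0.73 and PLIN1 at 0.99. The stricter limits called 4154 genes in place of 6831, and 3 PPAR targets lower in place of 8. The causes were not tested. Reads per library were 56 to 307 for PPARG, 85 to 461 for ESRRG and 0 to 27 for FNDC5.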
